A study of Mus musculus with 20 samples.

Results

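The translation initiation and elongation factors are the proteins that load messenger RNA and the initiator tRNA onto the ribosome and then feed it amino acids. They were taken as the protein-coding genes whose symbols begin with Eif1 to Eif6, Eef1 or Eef2, without the eIF4E-binding proteins, the eIF2 kinases and pseudogenes. The table of 55416 genes held 61 such symbols, and the 59 with at least 10 counts in at least 10 of 20 libraries were kept. Eif4e1b and Eef1akmt3 were left out, with at most 4 counts in any library. All 59 also passed the expression filter of the test across genes, so no factor was lost there.

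Quadriceps muscle was collected from male wild-type C57BL/6J mice aged 26 to 28 months, 3 h after a single injection into the muscle. The control mice (n = 10) received 50 µL of saline (0.9%), and the secretome mice (n = 10) received 50 µL of a cell-free product made from medium conditioned by partially differentiated human embryonic stem cells and diluted in saline. All mice had been fasted for 4 h, the libraries were made from total RNA depleted of ribosomal RNA, and each library is a separate mouse. The extraction notes in the labels speak of myotubes, whereas the labelled tissue is quadriceps.

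Initiation starts with eIF2, which carries the initiator tRNA, and eIF2B, which recharges eIF2 with GTP. The eIF1, eIF1A, eIF5 and eIF5B proteins police the choice of start codon and the joining of the ribosomal subunits, eIF3 is the large scaffold on the small subunit, and the eIF4 proteins bind and unwind the cap end of the messenger. Elongation is run by eEF1A, which delivers aminoacyl-tRNA, by the eEF1B exchange subunits, which recharge eEF1A, by eEF2, which moves the ribosome along, and by eIF5A, which helps at slow peptide bonds. Adult muscle fibres are known for using eEF1A2, while most other cells use eEF1A1.

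Many elongation factor messengers and nearly all ribosomal protein messengers are known for a 5′ terminal oligopyrimidine (5′ TOP) tract, a run of C and T at the very start of the transcript through which mTOR signalling acts on their translation. The tract is the sequence feature by which the elongation factors and the ribosomal proteins are usually grouped, so the pyrimidine runs near the annotated starts are shown for both eEF1A paralogues, for eIF3 subunits and for a ribosomal protein. Each line gives 30 bases of the gene's own strand in build GRCm38.p6, with capitals for the longest run of a C followed by at least 5 bases that are each C or T. Eef1a1 (chr9:78481650-78481679, minus strand) and Rpl32 (chr6:115808718-115808747, minus strand) were read from the first exon of GENCODE M21 transcripts. Eef1a2 (chr2:181156977-181157006, minus strand), Eif3f (chr7:108934403-108934432, plus strand) and Eif3k (chr7:28981854-28981883, minus strand) were read from RefSeq windows around the annotated start.
Eef1a1: tggacgttCTTTTTCgcaacgggtttgccg
Eef1a2: cactggttCTCTCCCTCgctccggtgcatc
Eif3f: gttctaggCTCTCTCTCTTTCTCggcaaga
Eif3k: tgaaagcgCCTTTCCCTTTgccttccttgt
Rpl32: CTTCCTTCTTCCTCggcgctgcctacgagg
The run was 7 bases long in Eef1a1, 9 in Eef1a2, 11 in Eif3k and 15 in Eif3f, against 14 in Rpl32. Only in Rpl32 did it begin at the annotated start itself. It began 53 bases downstream of that start in Eef1a1, 17 in Eef1a2 and 13 in Eif3k, and in Eif3f it began 4 bases upstream, so these runs are not shown to be 5′ TOP tracts. The stretch searched differed by source, since a transcript holds no bases upstream of its start. The Eef1a1 run also lies beyond the 50 bases searched after a RefSeq start. Positions and lengths are therefore not strictly comparable between the sources. RefSeq windows were matched by symbol for 47 of the 59 factors. From 10 bases before the annotated start to 50 after it, such a run was present in 27 of 61 factor windows (44.3%), in 81.6% of ribosomal protein windows and in 39.1% of the windows of all genes. Of the 10 factors listed as 5′ TOP messengers, 6 had a window and 5 of these held a run. The letters are a description of the window, and annotated starts can lie away from the true ones.

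Levels between genes were compared as CPM (counts scaled to a common library size with TMM) per kilobase of exon, taken as the median over all 20 mice. Elongation factors held 4 of the 5 highest places. Eef1a2 was highest at 563 (range 488 to 819), followed by Eef2 at 315 (224 to 407), Eif1 at 163 (104 to 194), Eef1a1 at 113 (75.4 to 205) and Eef1g at 90.7 CPM per kilobase. The ranges of Eef1a2 and Eef2 did not overlap, whereas those of Eif1 and Eef1a1 did. Eif4g1 (87.5), the scaffold of the cap-binding complex, Eif4g2 (76.5), which initiates without the cap-binding protein, and Eif5a (74.7 CPM per kilobase) came next. At the other end, Eif5a2, the second eIF5A gene, had 0.236, Eif3j2 had 0.714 and Eef1akmt4, a lysine methyltransferase of eEF1A, had 1.02 CPM per kilobase. Eif3j2 shared 90.8% of its 50-base words with Eif3j1, so the split of reads between these copies is uncertain. Eef1a1 and Eef1a2 shared 0 such words, as did the other paralogue pairs compared below.

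**Figure D1:**
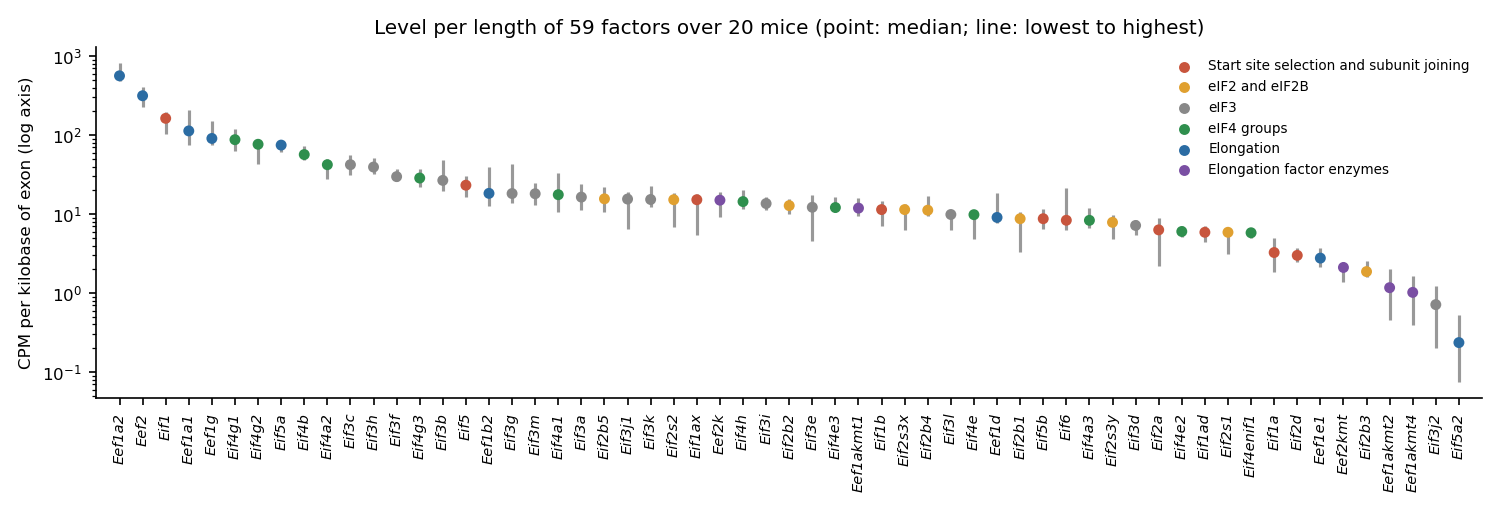
CPM per kilobase of exon (log axis) for each of the 59 factors, ordered by their median over 20 mice. Points are medians, grey lines run from the lowest to the highest mouse, and colours give the role. Eef1a2 and Eef2 stand at the top (563 and 315) and Eif5a2 at the bottom (0.236).

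The libraries held 13286983 to 22987237 counts on genes. The share of counts on Ttn (titin) fell into 3 ranges that follow the library numbers, 7.02 to 11% in libraries 1 to 5 (controls), 16.4 to 21.1% in libraries 6 to 15 (5 mice of each group) and 14.2 to 14.7% in libraries 16 to 20 (secretome). No batch is named for these ranges. Many effects are therefore also given within libraries 6 to 15 and between the outer libraries (1 to 5 against 16 to 20). In the outer libraries range and treatment cannot be told apart. Where an effect is given with no range named, it is over all libraries, and its values by range can differ. Control 2, the shallowest library, had the lowest value of all 20 mice for 27 of the 59 factors (18.5% of all genes tested were lowest there), and Control 9 had the highest for 17 (10.1% of all genes). The SD of the log2 CPM was larger in the control than in the secretome group for 49 of 59 factors (83.1%), against 76.4% of all genes.

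After secretome, 0 of the 59 factors passed the main test at 3 h, and the values of the family lay around 0. Their median log2 fold change was 0.04 (range -0.52 to 0.42), with 25 of 59 below 0, whereas the median over all 14471 genes tested was -0.03. By the quasi-likelihood F-test of edgeR, adjusted after Benjamini and Hochberg, 0 of 59 factors passed a 5% false discovery rate, against 0.00691% of all genes, which is 1 gene. In DESeq2, 1 factor passed, Eef1a1, and 1.18% of all genes with an adjusted p did. At an unadjusted edgeR p under 0.05, 2 factors were lower (3.39%, against 9.21% of all genes) and 5 were higher (8.47%, against 6.52% of all genes). The lower pair was Eef1a1 and Eif3k, and the higher factors were Eif1, Eif1ax, Eif5, Eif2s3x and Eif4g2. These counts became 4 lower and 9 higher without Secretome 9, and 4 lower without Control 4. They became 5 lower and 0 higher when the 3 ranges entered the model, under which the median was -0.02. Among the ranges, only libraries 6 to 15 held mice of both groups, so the treatment effect in that model rests on those libraries.

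**Figure D2:**
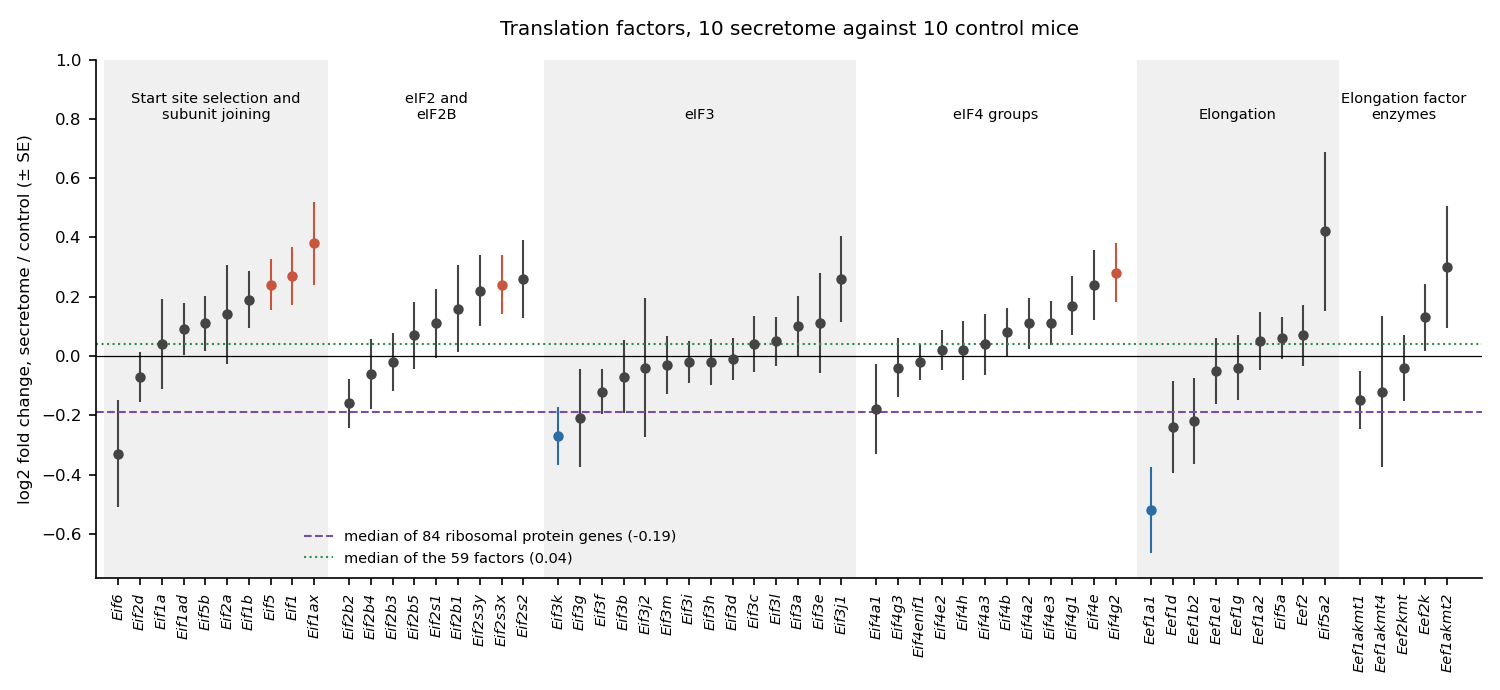
Log2 fold change (secretome over control, ± SE, edgeR, 10 against 10 mice) of the 59 factors, grouped by role and sorted within each group. Red and blue mark an unadjusted p under 0.05, none of which passed a 5% false discovery rate. The factors scatter around their median of 0.04 (dotted line), above the ribosomal protein median of -0.19 (dashed line), and Eef1a1 lies lowest at -0.52.

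Eef1a1 had the smallest p of any factor. Its CPM ran from 252 through a median of 323 to 511 in control muscle and from 188 through 231 to 382 in secretome muscle, and 9 of 10 secretome mice lay below the control median, although the groups overlapped. The log2 fold change was -0.52 ± 0.146 (SE), with p = 0.00152 and an adjusted p of 0.144 in edgeR, and an adjusted p of 0.0494 in DESeq2.

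Within libraries 6 to 15, Eef1a1 measured 273, 252, 292, 446 and 292 CPM in the controls and 237, 236, 216, 225 and 215 CPM in the secretome mice. Every secretome value lay below every control value there, which held for no other factor and for 1.09% of all genes. No factor had every secretome value above every control value, which held for 0.815% of all genes. The log2 fold change in these libraries was -0.45 ± 0.138 (unadjusted edgeR p = 0.00557, adjusted p = 0.412, and -0.29 with p = 0.00394 without Control 9), and it was -0.56 ± 0.211 between the outer libraries (p = 0.0192). The test of the difference between these effects gave -0.11 ± 0.264 (p = 0.681). The level in the outer secretome libraries was uneven, with 382 and 323 CPM in Secretome 7 and Secretome 8 but 201 and 188 CPM in Secretome 9 and Secretome 10.

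Markers of other cells were read beside Eef1a1. All 8 macrophage markers had log2 fold changes below 0, with a median of -0.66. At an unadjusted edgeR p under 0.05, 5 of them were lower, against 9.21% of all genes, and 1 passed a 5% false discovery rate in DESeq2. Their summed CPM ran from 85.5 through 123 to 245 in control and from 53.8 through 78.3 to 192 in secretome muscle. Within libraries 6 to 15 their median was -0.86, and 6 of 8 were lower at that p, against 4.88% of all genes. The sum there was 85.5 to 182 against 53.8 to 88.4 CPM. Of the 6 fibroblast markers, 6 were below 0 but 0 had an unadjusted p under 0.05, with a sum of 184 to 1125 against 289 to 686 CPM. The high control sums were those of libraries 1 to 5 (776 to 1125), and within libraries 6 to 15 4 of 6 were below 0, with 184 to 549 against 289 to 427 CPM. Adipocyte markers were below 0 for 6 of 6, 1 of them at an unadjusted p under 0.05, with a sum of 100 to 404 against 57.6 to 158 CPM. Within libraries 6 to 15 the adipocyte markers were also below 0 for 6 of 6, with a median of -0.47. There 2 of them were lower at that p, against 4.88% of all genes. Endothelial markers were below 0 for 5 of 6 (129 to 213 against 120 to 192 CPM) and neutrophil markers for 3 of 6 tested (5.65 to 111 against 4.43 to 117 CPM), with 0 of either at an unadjusted p under 0.05. Within libraries 6 to 15, 1 endothelial and 0 neutrophil markers were lower at that p (against 4.88% of all genes). In the same libraries 1 fibroblast marker was higher at that p (against 5.02% of all genes). None of these markers was at 0 in all libraries. The part of these cells in the Eef1a1 value was not tested, and in whole muscle fewer cells of a type and less RNA per cell cannot be told apart.

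Eef1a2, the muscle paralogue, ran from 1017 through 1186 to 1392 CPM in control and from 1059 through 1157 to 1707 in secretome muscle. The groups overlapped almost fully, 4 of 10 secretome mice lay above the control median, and the highest values came from Secretome 9 and Secretome 10 at 1707 and 1500 CPM. Its log2 fold change was 0.05 ± 0.0966 (edgeR p = 0.597, adjusted p = 0.82). The effect was -0.14 in libraries 6 to 15 and 0.25 between the outer libraries, a difference of 0.40 ± 0.172 (p = 0.0313, adjusted p = 0.377). Summed myofibre markers ran from 131999 to 216665 CPM in libraries 1 to 5 and from 238269 to 310914 in libraries 16 to 20. In libraries 6 to 15 they ran from 267049 to 367862 CPM in the controls and from 295191 to 351146 CPM in the secretome mice. Ttn, from whose share the ranges were drawn, is 1 of these 10 markers, so a sum that follows the ranges was partly fixed in advance.

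The balance of the eEF1A paralogues was taken as the log2 ratio of Eef1a2 to Eef1a1 per kilobase. It was 2.04 ± 0.46 (SD, n = 10) in control and 2.60 ± 0.48 (SD, n = 10) in secretome muscle, a difference of 0.56, and 8 of 10 secretome mice lay above the control median. On the linear scale the group medians of the ratio were 4.29 and 5.94. A two-sided permutation test with 100000 resamples gave p = 0.0175, and 0.123 after adjustment over the 7 paralogue ratios examined. Within libraries 6 to 15 the difference was 0.29 (exact permutation test, p = 0.19), and between the outer libraries it was 0.83 (exact p = 0.0476, adjusted 0.167), where the smallest p that 5 against 5 can give is 0.00794. Control 9, at 1.56, lay with the controls of libraries 1 to 5 rather than with the other controls of its own range, which ran from 2.41 to 2.73.

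**Figure D3:**
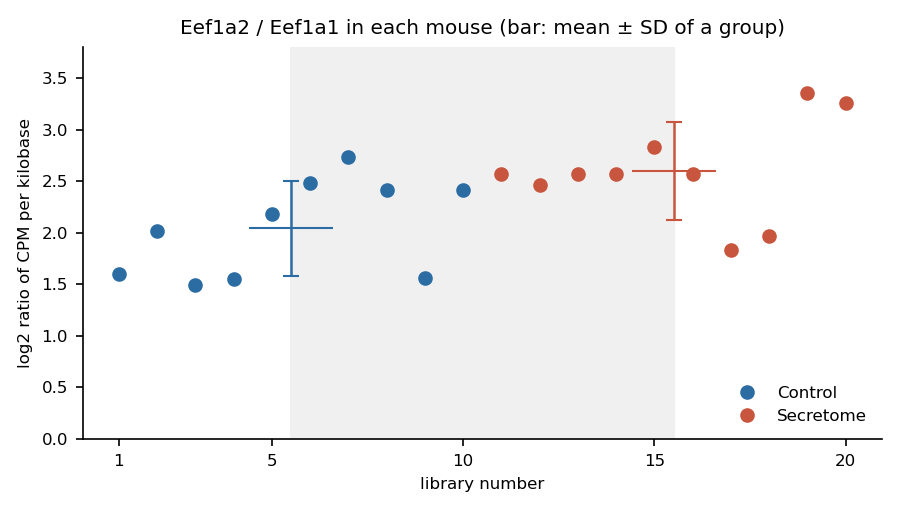
Log2 ratio of Eef1a2 to Eef1a1, each as CPM per kilobase, in every mouse by library number. Bars give the mean ± SD of each group of 10 and the shaded area marks libraries 6 to 15. The secretome mean of 2.60 lies above the control mean of 2.04, 4 of the 5 control libraries from 1 to 5 lie below the control median of 2.10, and the libraries of both groups meet inside the shaded range.

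None of the other 6 paralogue ratios passed the permutation test at 0.05 over all libraries. Eif4a2 over Eif4a1, the helicases of the cap complex, differed by 0.26 (p = 0.0868, permutation test), and 9 of 10 secretome mice exceeded the median of the controls. Eif1ax over Eif1a differed by 0.38 (permutation p = 0.0643) and Eif4e2 over Eif4e by -0.27 (permutation p = 0.0905). Eif4g3 over Eif4g1 differed by -0.21 (permutation p = 0.101), with -0.51 between the outer libraries (exact permutation p = 0.0397, adjusted 0.167) and 0.09 within libraries 6 to 15 (exact permutation p = 0.405). Eif5a2 over Eif5a differed by 0.34 (permutation p = 0.266), and the copies of the eIF2 gamma subunit on the sex chromosomes, Eif2s3y over Eif2s3x, by -0.05 (permutation p = 0.658). After adjustment over the 7 ratios the p over all libraries ran from 0.141 to 0.658.

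The remaining elongation factors did not pass the test. Eef2 ran from 745 through 1029 to 1338 CPM in control and from 959 through 1048 to 1351 CPM in secretome muscle, with a log2 fold change of 0.07 ± 0.103 (edgeR p = 0.527). Its controls split by library number, 745 to 991 CPM in libraries 1 to 5 and 1068 to 1338 in libraries 6 to 10. Its effect was -0.19 within libraries 6 to 15 and 0.37 between the outer libraries, a difference of 0.57 ± 0.157 (p = 0.00158, adjusted p = 0.169). Among the exchange subunits, Eef1b2 had a log2 fold change of -0.22 (p = 0.148), Eef1d -0.24 (p = 0.135) and Eef1g -0.04 (p = 0.733). The effect on Eef1g was -0.27 within libraries 6 to 15 and 0.23 between the outer libraries. The difference was 0.50 ± 0.194 (edgeR p = 0.0167, adjusted p = 0.319). Without Control 9, Eef1b2 had -0.05 in all libraries and -0.20 in place of -0.46 within libraries 6 to 15 (p = 0.0927). Eif5a, with 147 to 204 CPM in control and 159 to 204 in secretome muscle, had 0.06 (p = 0.425), and Eif5a2 had 0.42 ± 0.268 (p = 0.128, and 0.27 without Secretome 6) on a median of 0.913 and 1.43 CPM. The 9 elongation factors had a median of -0.04 in all libraries, -0.19 within libraries 6 to 15 and 0.13 between the outer libraries.

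The enzymes that modify elongation factors did not pass the test either. Eef2k, the kinase that switches eEF2 off, ran from 67.2 to 129 CPM in control and from 94.3 to 140 in secretome muscle (log2 fold change 0.13 ± 0.114, edgeR p = 0.253). Of the eEF1A methyltransferases, Eef1akmt1 had -0.15 (p = 0.135), Eef1akmt2 0.30 (p = 0.163) and Eef1akmt4 -0.12 (p = 0.638), the last pair with group medians of 1.58 to 2.19 CPM. The median of the 5 enzymes was -0.04, and 0 of 5 had an unadjusted p under 0.05.

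The start site and subunit joining factors held 3 of the 5 higher members, and the median of their 10 genes was 0.12. Eif1, which keeps the scanning ribosome from starting at the wrong codon, ran from 219 through 295 to 407 CPM in control and from 305 through 358 to 393 in secretome muscle. All 10 secretome mice lay above the control median, although 5 controls reached the secretome range. Its log2 fold change was 0.27 ± 0.0969 (edgeR p = 0.0101, adjusted p = 0.205), with 0.15 within libraries 6 to 15 (p = 0.307) and 0.41 between the outer libraries (p = 0.00505).

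Eif5, which triggers GTP hydrolysis by eIF2 once the start codon is found, ran from 113 through 132 to 179 CPM in control and from 154 through 166 to 208 in secretome muscle. Again 10 of 10 secretome mice exceeded the control median, while 4 controls reached the secretome range. That count of 10 also held for Eif2b5 and Eif4g1, whose unadjusted edgeR p over all libraries was 0.559 and 0.107. Its share of all genes is not given here. The log2 fold change was 0.24 ± 0.0857 (edgeR p = 0.00982, adjusted p = 0.203), with 0.25 within libraries 6 to 15 (p = 0.0541) and 0.25 between the outer libraries, the same size in each. Among the higher members, Eif5 was the most even across the library ranges.

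Eif1ax, the X-linked eIF1A gene, ran from 28.2 through 73.3 to 85.0 CPM in control and from 74.9 through 88.6 to 95.8 in secretome muscle. All 10 secretome mice lay above the control median, Control 2 and Control 3 were low at 28.2 and 43.1 CPM, and the highest controls overlapped the secretome mice. Its log2 fold change was 0.38 ± 0.14 (edgeR p = 0.0127, adjusted p = 0.213), 0.22 within libraries 6 to 15 (p = 0.0513) and 0.29 to 0.42 when single mice were left out. The autosomal copy Eif1a had 0.04 (p = 0.796), Eif1b 0.19 (p = 0.0622) and Eif5b 0.11 (p = 0.267). Eif6, which keeps the large ribosomal subunit from joining too early, had -0.33 ± 0.181 (p = 0.0784) on medians of 23.4 and 21.7 CPM, with Control 9 highest at 58.6 CPM, without which it was -0.15.

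Of the 9 eIF2 and eIF2B genes, 6 had fold changes above 0 and the median was 0.11. Eif2s3x, the gamma subunit on the X chromosome, ran from 24.0 through 39.9 to 50.8 CPM in control and from 41.2 through 46.1 to 50.1 in secretome muscle, with 10 of 10 secretome mice above the control median and overlap with the higher controls. Its log2 fold change was 0.24 ± 0.0995 (edgeR p = 0.0266, adjusted p = 0.264) and 0.18 within libraries 6 to 15 (p = 0.134). Eif2s3y, its Y-linked copy, had a nearly equal 0.22 (p = 0.0779), Eif2s2, the beta subunit, 0.26 (p = 0.0585, and 0.36 with p = 0.0185 within libraries 6 to 15) and Eif2s1, the alpha subunit that the stress kinases phosphorylate, 0.11 (p = 0.349).

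The catalytic eIF2B subunit Eif2b5 had the smallest p of any factor for a difference between the library ranges. It ran from 27.7 to 36.2 CPM in libraries 1 to 5, from 33.9 to 57.8 in libraries 6 to 10, from 38.6 to 43.8 in libraries 11 to 15 and from 38.4 to 49.4 in libraries 16 to 20. The controls of libraries 1 to 5 all lay below every secretome mouse, whereas those of libraries 6 to 10 spanned the secretome values. The log2 fold change was 0.07 in all libraries (edgeR p = 0.559), -0.21 within libraries 6 to 15 (p = 0.101) and 0.41 between the outer libraries (p = 0.00608), a difference of 0.63 ± 0.171 (p = 0.00142, adjusted p = 0.165).

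The eIF3 scaffold had a median of -0.02 over 14 subunits, with 9 below 0. Eif3k, a small peripheral subunit, ran from 36.8 through 43.7 to 61.6 CPM in control and from 33.4 through 37.1 to 46.7 in secretome muscle, and 9 of 10 secretome mice lay below the control median. Its log2 fold change was -0.27 ± 0.0989 (edgeR p = 0.0109, adjusted p = 0.205), -0.27 within libraries 6 to 15 and -0.26 between the outer libraries. With Eef1a1 it was among the factors lower at an unadjusted p under 0.05 within libraries 6 to 15 (p = 0.0492, and -0.14 with p = 0.152 without Control 9). Eif3a, the largest subunit, had 0.10 (p = 0.339), Eif3j1 0.26 (p = 0.088) and Eif3j2 -0.04 (p = 0.862) at under 3 CPM.

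Of the 12 eIF4 genes, 9 had fold changes above 0, with a median of 0.06. Eif4g2 ran from 439 through 688 to 858 CPM in control and from 727 through 812 to 908 in secretome muscle, where 10 of 10 mice lay above the control median. Its log2 fold change was 0.28 ± 0.0996 (edgeR p = 0.0105, adjusted p = 0.205), with 0.17 within libraries 6 to 15 (p = 0.155) and 0.41 between the outer libraries (p = 0.0171). The cap-binding protein Eif4e had 0.24 ± 0.119 (p = 0.0555) on medians of 55.4 and 63.7 CPM. Eif4g1 had 0.17 (p = 0.107), with -0.08 within libraries 6 to 15 and 0.45 between the outer libraries, a difference of 0.55 ± 0.158 (p = 0.00232, adjusted p = 0.192). The helicase Eif4a1 had -0.18 (p = 0.256, and -0.05 without Control 9) and Eif4a2 0.11 (p = 0.207).

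**Figure D4:**
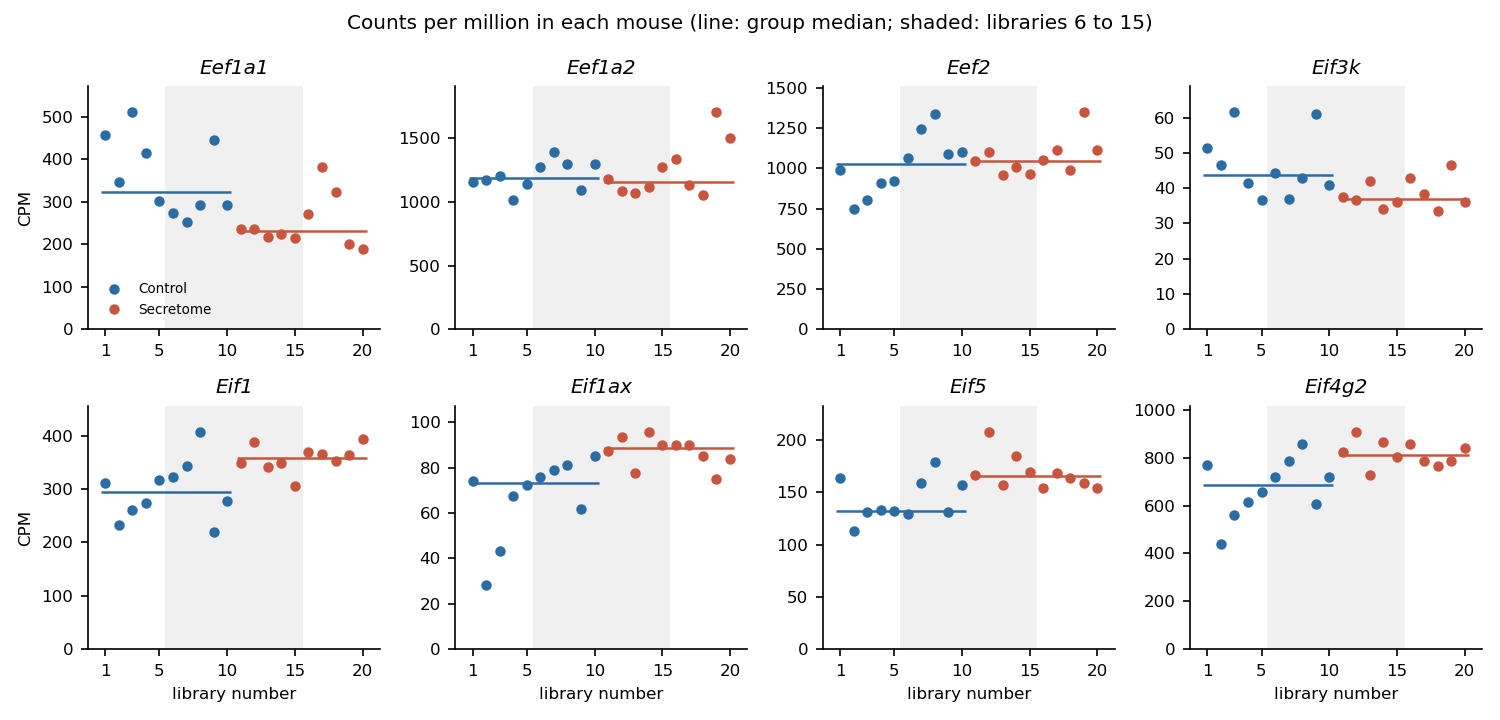
CPM in each mouse, by library number, for 8 factors on linear axes from 0. Horizontal lines are the group medians and the shaded area marks libraries 6 to 15. The control and secretome medians are 323 and 231 for Eef1a1 and 43.7 and 37.1 for Eif3k, the secretome mice of Eif1, Eif1ax, Eif5 and Eif4g2 all lie above the control medians, and the controls of Eef2 are lower in libraries 1 to 5 (at most 991) than in libraries 6 to 10 (at least 1068).

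The counts were also taken by library range. Within libraries 6 to 15, 0 factors passed a 5% false discovery rate in edgeR or DESeq2, and 0% of all genes did in edgeR. At an unadjusted edgeR p under 0.05, 6 factors were lower (10.2%, against 4.88% of all genes) and 2 were higher (3.39%, against 5.02% of all genes). The lower ones were Eef1a1, Eef1b2, Eif2b2, Eif3b, Eif3f and Eif3k, and the higher ones were Eif2s2 and Eif3e. These counts depended on single mice, and leaving out each in turn gave 1 (without Secretome 2, 4 or 5), 2 (without Control 9), 3 (without Control 7 or Secretome 1), 4 (without Control 6 or 8), 7 or 9 lower factors and 0 (without Control 6 or Secretome 2) to 7 (without Control 8) higher ones. Eef1a1 was lower at an unadjusted p under 0.05 in 10 of 10 of these fits, and Eif2s2 higher in 8. The shares of all genes in these fits are not given here. Between the outer libraries, 1 factor was lower (1.69%, against 9.19% of all genes), which was Eef1a1, and 9 were higher (15.3%, against 7.02% of all genes). The median was -0.01 within libraries 6 to 15, as it was for all genes, and 0.14 between the outer libraries, where it was -0.04 for all genes.

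The difference between these effects was tested as an interaction of treatment and range. In the outer libraries range and treatment cannot be told apart, so a difference may be one of range. It was above 0, meaning a more positive value in the outer libraries, for 44 of 59 factors, against 6987 of 14471 genes. At an unadjusted p under 0.05 there were 11 factors, all of them above 0 (18.6%, against 5.51% of all genes). No factor had an unadjusted p under 0.05 with a difference below 0, against 5.59% of all genes, and 0 of 59 passed a 5% false discovery rate in edgeR, which 0.0553% of all genes did. The 11 were Eif1ad, Eif2b5, Eif3b, Eif3c, Eif4a3, Eif4g1, Eif4h, Eef1a2, Eef1b2, Eef1g and Eef2. Myofibre markers had a difference above 0 in 10 of 10, with a median of 0.55. At an unadjusted p under 0.05 there were 4 of these 10, against 5.51% of all genes. Ttn, from whose share the ranges were drawn, is among these markers, so their sign was partly fixed in advance. The part of the fibre content in the factor values was not tested.

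**Figure D5:**
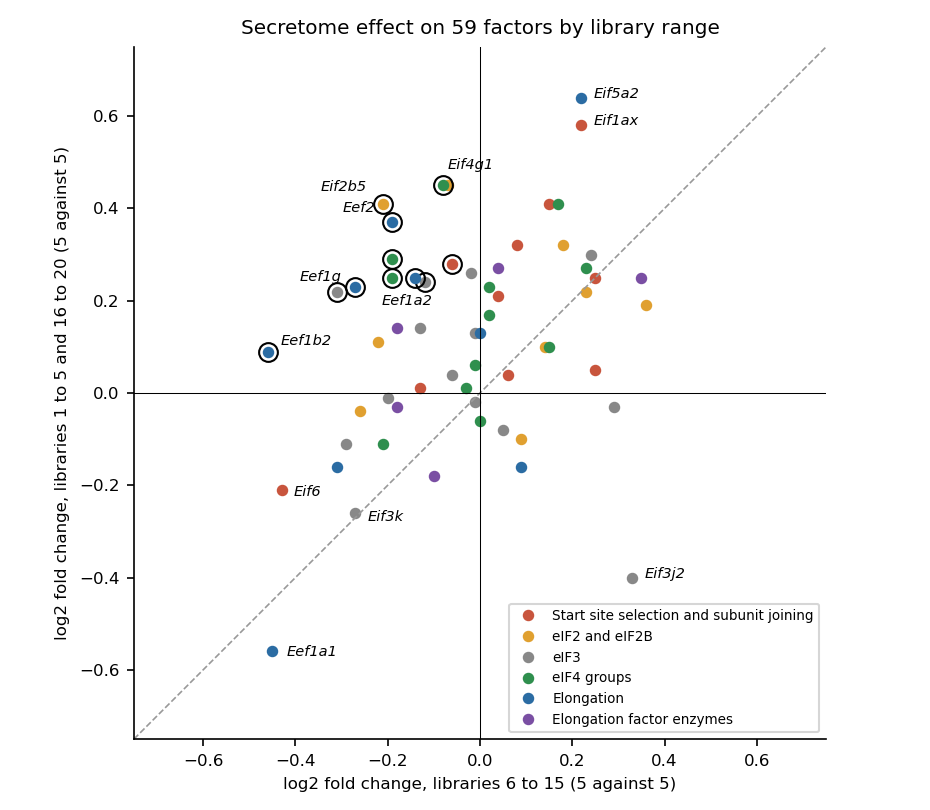
Log2 fold change of each factor within libraries 6 to 15 (horizontal) and between libraries 1 to 5 and 16 to 20 (vertical), 5 against 5 mice each, coloured by role. Circles mark the 11 factors whose values differed at an unadjusted p under 0.05, all of them above the dashed line of equal values. On the vertical axis range and treatment cannot be told apart. Eef1a1 and Eif3k lie near that line at the lower left.

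The ribosomal proteins gave a contrast with the factors they work beside. Their median log2 fold change over 84 genes was -0.19, with 72 of 84 below 0, against 0.04 and 25 of 59 for the factors. At an unadjusted edgeR p under 0.05, 31 ribosomal protein genes were lower (36.9%, against 9.21% of all genes) and 0 higher (against 6.52%). In edgeR 0 passed a 5% false discovery rate, and in DESeq2 1 did, Rpl41. Rpl41 had -0.26 within libraries 6 to 15 (edgeR p = 0.0513) and -1.08 between the outer libraries (p = 0.000804). The difference was -0.82 ± 0.29 (p = 0.0104, adjusted p = 0.275). Within libraries 6 to 15 the median of the ribosomal proteins was -0.16, with 69 of 84 below 0. There 6 were lower at an unadjusted p under 0.05 (7.14%, against 4.88% of all genes). Between the outer libraries the median was -0.20. The mean log2 level per mouse, relative to each gene's mean over all mice, was 0.09 ± 0.20 (SD, n = 10) in control and -0.09 ± 0.15 in secretome muscle for the ribosomal proteins, against -0.03 ± 0.14 and 0.03 ± 0.05 for the factors. The difference between these families was not tested. Rpl10a, with the smallest p of them, had medians of 125 CPM in control and 98.4 CPM in secretome muscle. Its log2 fold change of -0.52 (edgeR adjusted p = 0.144) equalled that of Eef1a1 over all libraries at this rounding. Within libraries 6 to 15 Rpl10a had -0.34 (edgeR p = 0.0721) beside -0.45 for Eef1a1, and between the outer libraries -0.66 beside -0.56.

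The 10 factors known as 5′ TOP messengers, Eef1a1, Eef1a2, Eef1b2, Eef1d, Eef1g, Eef2, Eif3e, Eif3f, Eif3h and Eif4b, had a median of -0.03 with 6 below 0 in all libraries, and the other 49 had a median of 0.05 with 19 below 0. Between the outer libraries the 10 had a median of 0.04 with 5 below 0. Within libraries 6 to 15 they had a median of -0.20 with 8 below 0, beside -0.16 for the ribosomal proteins, and the pair above 0 within those libraries was Eif3e, at 0.29 (p = 0.0457), and Eif4b, at 0.02 (p = 0.858). Eif3f had -0.12 in all libraries (p = 0.13) and -0.20 within libraries 6 to 15 (p = 0.0476).

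Genes that act on or with the factors were read from lists of textbook members. Of 26 regulators (eIF2 kinases and phosphatase subunits, eIF4E-binding proteins, mTOR and S6 kinase genes, and the enzymes of hypusine and diphthamide), 1 was higher and 1 lower at an unadjusted edgeR p under 0.05 (3.85% each, against 6.52% and 9.21% of all genes). Eif4ebp2, which holds eIF4E away from eIF4G, had a log2 fold change of 0.22 (p = 0.0293). Its effect was 0.08 within libraries 6 to 15 (edgeR p = 0.42) and 0.40 between the outer libraries (p = 0.0243). The S6 kinase gene Rps6kb2 had -0.20 (p = 0.0313), with 10 of 10 secretome mice below the control median, and -0.19 within libraries 6 to 15 (p = 0.105). The median of the 26 was -0.01.

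Of the 21 tested partners (poly(A)-binding proteins, helicases, recycling and release factors), 5 were higher (23.8%, against 6.52% of all genes) and 0 lower (against 9.21%), with a median of 0.13. In libraries 6 to 15, 2 were higher (9.52%, against 5.02% of all genes) and 1 lower (4.76%, against 4.88%), with a median of -0.01. Mcts1, which takes part in reinitiation, ran from 8.00 through 9.66 to 12.9 CPM in control and from 9.66 through 12.4 to 14.5 in secretome muscle (log2 fold change 0.30, edgeR p = 0.00441, adjusted p = 0.17). The helicase Ddx3x had 0.40 (p = 0.00656, adjusted p = 0.188). Of 10 tested factors of mitochondrial translation, 3 were higher (30%, against 6.52% of all genes) and 1 lower (10%, against 9.21%) in all libraries. Within libraries 6 to 15, 0 were higher (against 5.02% of all genes) and 2 lower (20%, against 4.88%). Mtif2, which brings the initiator tRNA to the mitochondrial ribosome, ran from 17.2 through 20.1 to 23.1 CPM in control and from 21.1 through 24.4 to 29.3 in secretome muscle (log2 fold change 0.30 ± 0.0753, edgeR p = 0.000483, adjusted p = 0.109, DESeq2 adjusted p = 0.0146). Its effect was 0.17 within libraries 6 to 15 (edgeR p = 0.125) and 0.46 between the outer libraries (p = 0.00147). The difference was 0.30 ± 0.138 (p = 0.0428, adjusted p = 0.421). Mtif3, which prepares the mitochondrial small subunit, had -0.26 (p = 0.0262). None of these genes passed a 5% false discovery rate in edgeR.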

How the data were processed

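The authors sequenced stranded libraries of total RNA depleted of ribosomal RNA in pairs and deposited whole-number counts per gene, without normalization, in 1 column per mouse. The submitters' processing notes name cutadapt 1.16, STAR 2.7.9a, featureCounts 1.6.3, DESeq2 1.34.0 and build GRCm39. Symbols, biotypes and exon lengths came from GENCODE M21, which is on another build, and were found for 52135 of 55416 identifiers, which held at least 98.6% of each library. Groups came from the sample labels, and each library was treated as a replicate.

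Counts were filtered with filterByExpr (minimum count 10, 14471 genes), scaled with TMM and tested in edgeR 4.0.16 (R 4.3.3) by the robust quasi-likelihood F-test with Benjamini-Hochberg adjustment over all genes tested. Standard errors were the log2 fold change divided by the square root of F. Fits used all 20 libraries, libraries 6 to 15, the outer libraries, or all with an interaction of treatment and range. The 3 ranges were drawn from the shares of Ttn. Ratios per mouse used CPM + 0.5 and two-sided permutation tests, and log2 CPM a prior count of 2. Alternatives were DESeq2 1.42.0, RLE scaling, no filter, a replicate block, terms for the ranges, another ratio pseudocount of 5 and leaving out each mouse. Procedures were tested on simulated counts. Depth, 13286983 to 22987237 counts, limits factors under about 2 CPM.

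The members and lists were chosen with earlier results of these data known. Named factors were a fixed set of best known factors, the 3 highest and 3 lowest per length, the 2 with the smallest p in each role group and any past the false discovery rate in edgeR, DESeq2 or the interaction. Eif1ax, Eif1a, Eif1b, Eif5b, Eif2s3y, Eif3e, Eif3f, Eef1d and the factors named in counts were added after their values were seen. A sequence window of 1 factor is not reported here.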

Additional observations from a re-analysis of the deposited data

Results flagged for a closer look

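In 6 of the 80 sets of 10 values examined (named factors and scores per mouse), the lowest or highest mouse stood apart from the other 9 by Dixon's test, where chance flags about 1 set in 20. Control 9 had 6.64 log2 CPM of Eef1b2, with the next control at 5.76, and 8.61 log2 CPM of Eef1g, with the next control at 8.00. Secretome 9 had 10.40 log2 CPM of Eef2, with the next secretome mouse at 10.12, and Secretome 10 had 5.54 log2 CPM of Eif4a1, with the next at 5.98. Control 2 had -1.05 log2 CPM of Eif5a2, with the next control at -0.17, and a mean log2 level over the 45 initiation factors of -0.36 relative to all mice, with the next control at -0.14.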

How the results depend on the processing

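With DESeq2, 1 factor passed a 5% false discovery rate (0 in edgeR) and 8 were higher at an unadjusted p under 0.05 (5 in edgeR). These 8 were 13.6% of the factors, and in DESeq2 1157 of 14471 genes were higher at that p. With the 3 library ranges in the model, 5 factors were lower and 0 higher. Among the ranges, only libraries 6 to 15 held mice of both groups. The treatment effect in this model therefore rests on libraries 6 to 15 and is not a comparison separate from the fit to them. Leaving out single mice gave 2 to 4 lower factors (4 without Control 4 or without Secretome 9) and 5 to 9 higher ones (9 without Secretome 9). Correlations of same-numbered deviations ran from -0.24 to 0.221, and 2 of 10 exceeded 0.1. Mice with the same number lay in different library ranges, so these correlations cannot tell whether the replicate numbers pair the mice. With the replicate number as a block, 0 factors passed the false discovery rate and 8 were higher at an unadjusted p under 0.05. The shares of all genes in the fits with the ranges, with the block or without single mice are not given here. The Eef1a2 to Eef1a1 ratio differed by 0.29 in libraries 6 to 15 alone (exact permutation test, p = 0.19). With the term for the 3 ranges, the log2 fold change turned its sign for Eef1a2 (-0.15), Eef2 (-0.20), Eif2b5 (-0.22), Eif3a (-0.04), Eif3j2 (0.32), Eif4g1 (-0.10) and Eif5a (-0.01). The fit to libraries 6 to 15 gave nearly the same values, in this order -0.14, -0.19, -0.21, -0.02, 0.33, -0.08 and 0.00. In libraries 6 to 15 alone the ratio changed sign for Eif4g3 over Eif4g1 (0.09) and Eif2s3y over Eif2s3x (0.03). Leaving out single mice moved Eef1a2 from -0.01 (without Secretome 9) to 0.08, Eef1g from -0.09 to 0.06 (without Control 9), Eif3j2 from -0.15 to 0.07 (without Secretome 9) and the Eif2s3y to Eif2s3x ratio from -0.08 to 0.02 (without Secretome 9). The causes were not tested. The median of the factors ran from -0.02 (term for the 3 ranges) to 0.06 over the alternatives, and that of the ribosomal proteins from -0.22 to -0.15.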
